A study of Mus musculus with 4 samples.

Results

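Peak-dense windows are 50 kb stretches of the mouse genome that hold 10 or more open chromatin regions called in every library of the study. Peaks of 4 ATAC-seq lists on chromosomes 1 to 19, X and Y were merged wherever they overlapped by 1 bp or more, and mm10 chromosomes were cut into 50 kb windows from position 1. A region called in all 4 lists is termed a shared region, and a region belongs to the window that holds its centre. Of 25315 windows with at least 1 shared region, 347 (1.37%) reached 10 shared regions. They held 4659 of 113056 merged regions (4.12%), of which 3811 were shared, out of 75395 shared regions in all.

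The libraries came from lung endothelial cells sorted by flow cytometry from Dnmt3a knockout (KO) and wild-type (WT) mice, with 2 libraries per genotype. Dnmt3a encodes a DNA methyltransferase that places methyl groups on unmethylated DNA, and the comparison asked which open regions differ in its absence. The labels gave neither the age of the mice, nor how or in which cells the gene was deleted, nor whether 2 libraries with one genotype were made from separate animals. The p-values therefore measure the spread between these libraries only. Each list gave the position and width of its peaks without scores or counts. Depth could not be known, and genotypes could differ only in their peaks' presence or width. The lists held 85091 and 100879 peaks in KO replicates 1 and 2, and 101442 and 97627 peaks in WT replicates 1 and 2. They covered 46.6 and 47.8 Mb in the KO libraries and 51.1 and 50.5 Mb in the WT libraries. A peak was listed at or within 1000 bp of either end of the gene for 12 of 12 pan-endothelial markers in every library. The same count was 5 to 7 of 9 for lung epithelial markers, 2 of 8 for leukocyte markers in every library and 7 of 9 for fibroblast and mural markers in every library. KO replicate 2 listed 2 peaks near the Xist start and none at 5 Y-linked genes, whereas KO replicate 1 and both WT libraries listed 0 at Xist and peaks at 3 to 4 of the Y-linked genes, so the KO libraries differed in these sex-linked peaks.

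ATAC-seq marks DNA that a transposase can reach, chiefly promoters and enhancers whose nucleosomes are displaced by bound transcription factors. Genes that define a cell type, and genes that must respond quickly to signals, are often surrounded by several such elements within a short distance, and long introns are a common place for enhancers. In endothelium, ETS, GATA, forkhead and KLF factors are known regulators of such elements, and DNA methylation is known to be low where they are open.

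The promoters below belong to the 3 windows with most shared regions that contain a transcription start site of a gene with a RefSeq promoter entry and a shared region over it. Each runs from 250 bases before to 50 bases after the start site on the plus strand of GRCm38.p6, the mm10 assembly. Lyl1, a blood and endothelial transcription factor, lies in the window named by Nfix (chr8:84701207-84701506). Hspg2, which encodes the basement membrane proteoglycan perlecan, names its own window (chr4:137468553-137468852). Wbp1l also names its own window (chr19:46623151-46623450). Capitals mark CCNCNCCC, the CACC-type motif of KLF factors, on either strand. Its matches may overlap one another and also include GC boxes and plain runs of G, such as the first marked stretch at Lyl1.
Lyl1: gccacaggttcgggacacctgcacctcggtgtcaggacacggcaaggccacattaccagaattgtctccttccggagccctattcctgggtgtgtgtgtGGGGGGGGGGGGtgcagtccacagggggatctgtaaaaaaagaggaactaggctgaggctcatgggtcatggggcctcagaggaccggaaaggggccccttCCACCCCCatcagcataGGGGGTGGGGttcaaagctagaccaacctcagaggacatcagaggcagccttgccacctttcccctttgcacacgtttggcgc
Hspg2: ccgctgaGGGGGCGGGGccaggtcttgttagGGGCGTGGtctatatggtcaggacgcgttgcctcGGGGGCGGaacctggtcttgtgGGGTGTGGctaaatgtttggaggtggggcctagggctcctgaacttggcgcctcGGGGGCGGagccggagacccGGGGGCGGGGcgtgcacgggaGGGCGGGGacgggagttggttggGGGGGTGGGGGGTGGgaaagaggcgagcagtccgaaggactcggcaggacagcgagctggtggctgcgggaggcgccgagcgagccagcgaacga
Wbp1l: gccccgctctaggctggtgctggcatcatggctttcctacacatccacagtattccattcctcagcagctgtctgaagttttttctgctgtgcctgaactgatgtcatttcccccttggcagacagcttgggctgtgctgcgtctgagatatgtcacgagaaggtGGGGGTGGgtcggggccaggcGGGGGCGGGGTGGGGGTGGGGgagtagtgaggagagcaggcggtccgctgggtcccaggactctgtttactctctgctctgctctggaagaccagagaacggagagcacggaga

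Matches to CCNCNCCC numbered 8 at Lyl1, 12 at Hspg2 and 6 at Wbp1l, and CpG dinucleotides numbered 7, 27 and 10. Overlapping matches are counted singly, and several of those at Lyl1 fall in the run of G, so they are not separate KLF sites. The shared region over the Lyl1 promoter was 553 and 551 bp wide in the KO libraries and 550 and 558 bp in the WT libraries. At Hspg2 the widths were 734 and 808 bp in KO and 872 and 914 bp in WT. At Wbp1l they were 504 and 540 bp in KO and 556 and 570 bp in WT. Both KO widths lay below both WT widths at Hspg2 and Wbp1l, and the groups overlapped at Lyl1. The 347 windows held 425 promoters of 333 protein-coding genes with an entry, of 21263 promoters in all. CCNCNCCC occurred in 72.5% of them and in 56.6% of all promoters. Other motifs, searched on both strands, were an ETS motif (CNGGAAGT, 7.76% against 10.6%), an AP-1 motif (TGANTCA, 4.94% against 6.99%), a forkhead motif (TGTTTAC, 2.59% against 3.01%) and a GATA motif (AGATAA, 7.76% against 9.65%). The median promoter in a peak-dense window held 17 CpG dinucleotides, against 13 over all promoters. A shared region lay over 80.5% of the promoters in peak-dense windows and over 57.9% of all promoters, a share that the rule for the windows raises. Among promoters with a shared region over them, CCNCNCCC occurred in 75.4% in peak-dense windows and in 71.5% of all. There the ETS motif occurred in 9.36% against 14.0% and the GATA motif in 7.60% against 5.49%. The AP-1 motif occurred in 4.39% against 4.40% and the forkhead motif in 2.92% against 2.40%. Their median number of CpG dinucleotides was 20 against 22, so the order for CpG, GATA and forkhead turned. These shares are descriptions with no test.

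Mature microRNAs, short RNAs that repress messenger RNAs through their seed (bases 2 to 8, in capitals), lay in 23 of the 347 windows, with 44 mature sequences in all. The 4 shown come from windows of endothelial or Hox genes. miR-126a-3p, an endothelial microRNA with a role in vessel integrity, comes from an intron of Egfl7 at chr2:26591402-26591423. miR-195a-5p (chr11:70235062-70235082) and miR-497a-5p (chr11:70234730-70234751) share the seed AGCAGCA and lie in the window of Bcl6b. miR-10a-5p (chr11:96317186-96317208) lies inside the span of Hoxb3, between Hoxb5 and Hoxb4. All 4 are on the plus strand, with sequences from RefSeq.
miR-126a-3p: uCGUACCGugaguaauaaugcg
miR-195a-5p: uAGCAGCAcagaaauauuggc
miR-497a-5p: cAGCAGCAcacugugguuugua
miR-10a-5p: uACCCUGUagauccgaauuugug

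The nearest shared region lay 2158 bp from miR-126a-3p, 1593 bp from miR-195a-5p, 1924 bp from miR-497a-5p and 1039 bp from miR-10a-5p.

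The number of windows decreased steadily as the number of shared regions rose, with no gap at the threshold. Windows with 9 shared regions, just outside, numbered 335, and windows with 10, just inside, numbered 173. A further 85 windows held 11, 43 held 12, 27 held 13, 10 held 14, 6 held 15, 2 held 16 and 1 held 17. Just outside the threshold, peaks covered on average 5343 and 5456 bp per window in the KO libraries and 5604 and 5572 bp in the WT libraries. Just inside, they covered 5700 and 5899 bp in KO and 6014 and 6019 bp in WT. Over the 347 windows the covered length, termed open length, ranged from 3754 to 10944 bp per window and library. The median distance between neighbouring shared regions of a window was 3515.5 bp in the median window, and ranged from 1227 to 6586 bp.

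**Figure D1:**
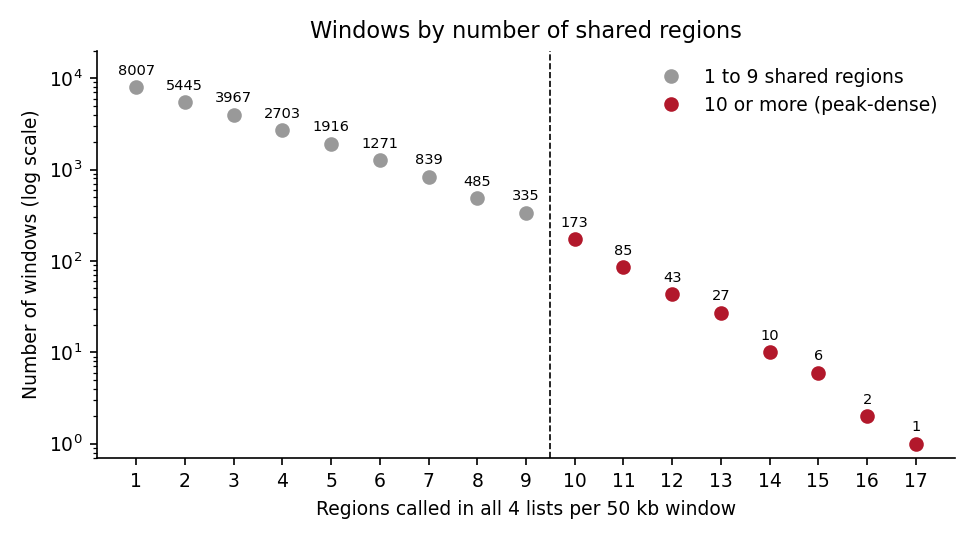
Number of 50 kb windows (vertical axis, log scale) by the number of shared regions in the window (horizontal axis). Red points are the 347 peak-dense windows with 10 or more, and the 335 windows with 9 lie just outside.

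Peak-dense windows overlapped more genes on average than other windows. They overlapped 1.84 protein-coding genes on average, against 1.18 in the other 24968 windows with a shared region, with a median of 1 in both. At least 1 gene was overlapped by 93.4% of them, against 75.9%. Chromosome 11 had 40 such windows (2.64% of its windows with a shared region), chromosome 8 had 36 (2.78%), and chromosome 18 had 19 (2.06%). Chromosome X had 2 (0.259%), both at Bcor, which encodes a corepressor of BCL6, and chromosome Y had 0. In 98 windows a single gene span held every shared region. These 98 windows belonged to 87 genes with a median length of 145 kb, against 17.2 kb over all 21887 protein-coding genes. Long genes overlap more windows, so the gene counts here depend on gene length.

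Most shared regions of these windows lay away from gene ends. Of the 3811, 599 (15.7%) lay within 1000 bp of an end of a protein-coding gene, against 19.6% of shared regions elsewhere, and 2533 (66.5%) lay inside a gene, against 58.3%. Away from gene ends, their median widths were 463 and 449 bp in the KO libraries and 471 and 478 bp in the WT libraries, against 466, 443.5, 475 and 477 bp elsewhere. At gene ends they were 637, 585, 626 and 644 bp in the same order, against 805, 734, 780 and 797 bp elsewhere. Peaks at gene ends were thus narrower in peak-dense windows in each of the 4 libraries, whereas those away from ends had nearly the same width. Merging at 1 bp joins peaks that touch, so a window counts more regions where peaks are narrow.

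The window with most shared regions lay inside Pxn, which encodes the focal adhesion protein paxillin (chromosome 5, 115500001 to 115550000). It held 17 shared regions, and 0 of them lay within 1000 bp of a gene end. Its open length was 9500 and 9451 bp in KO and 10392 and 10232 bp in WT. The width of a region in a library is summed over that library's peaks in it, and here it ran from 226 to 1425 bp over the shared regions. As deposited, both KO widths lay below both WT widths in 6 of the 17 regions and above them in 1. The KO lists cover less in total, and the share over all shared regions was not counted for widths as deposited. The region at 115529348 to 115530776 was 970 and 694 bp wide in KO and 1425 and 1339 bp in WT. Across the window the calls in the 4 libraries were nearly the same, with 17, 18, 17 and 17 regions called.

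The windows next in number held 15 or 16 shared regions. Of these, a window of 16 on chromosome 9 and a window of 15 near Hrh1 are described further below. Ehd4, an endocytic recycling protein, named a window of 16 shared regions on chromosome 2 (120100001 to 120150000), with open lengths of 7244 and 7128 bp in KO and 7479 and 7401 bp in WT. Hspg2 named a window of 15 on chromosome 4 (137450001 to 137500000), with 8519 and 7989 bp in KO and 7618 and 7764 bp in WT. The window named by Nfix, a nuclear factor I gene, held 15 shared regions (chromosome 8, 84700001 to 84750000), with 7962 and 8851 bp in KO and 7638 and 8065 bp in WT. Open length as deposited was lower in both KO libraries at Ehd4 and higher in both at Hspg2, and the groups overlapped at Nfix. Such orders depend on scaling, since the KO lists cover less in total: of the 20 windows with most shared regions, 12 had a negative log2 difference, KO minus WT, after quantile normalisation and a positive one with median scaling, Ehd4 among them (-0.02 and 0.08). Ccdc85c on chromosome 12 and Wbp1l on chromosome 19 also named windows of 15. A window of 15 on chromosome 19 (5800001 to 5850000) overlapped no protein-coding gene and held Malat1 and Neat1, long noncoding RNAs of the nucleus. Its open lengths were nearly the same in all libraries, at 8335, 8300, 8321 and 8336 bp.

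Genes that act in endothelium stood among the 10 windows with 14 shared regions. Nos3, which encodes endothelial nitric oxide synthase, named a window on chromosome 5 (24350001 to 24400000) in which all 14 regions were shared and 7 lay at gene ends. Its open length was 6498 and 6243 bp in KO and 6522 and 6395 bp in WT. Sparcl1, a secreted matrix protein, had 7322 and 7127 bp in KO and 7571 and 8012 bp in WT. The window of Rapgef3, which encodes the cyclic AMP sensor EPAC1, also held Hdac7, and had 6951 and 6706 bp in KO and 7432 and 7039 bp in WT. At Nos3 the groups overlapped, whereas at Sparcl1 and Rapgef3 both KO libraries lay below both WT libraries as deposited, an order that turned with median scaling (log2 differences of 0.02 and 0.04). The window that held Bcl6b, an endothelial transcriptional repressor, had 8467 and 8215 bp in KO and 8666 and 8619 bp in WT. Others named by the number of regions were Adamtsl4, Gdf15, Cyth1, Sipa1l2, Midn and Sema7a with 14, and the window of Agpat2 and Egfl7 with 13, which had the greatest open length of these 20 windows, at 9988 and 10672 bp in KO and 10944 and 10602 bp in WT.

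**Figure D2:**
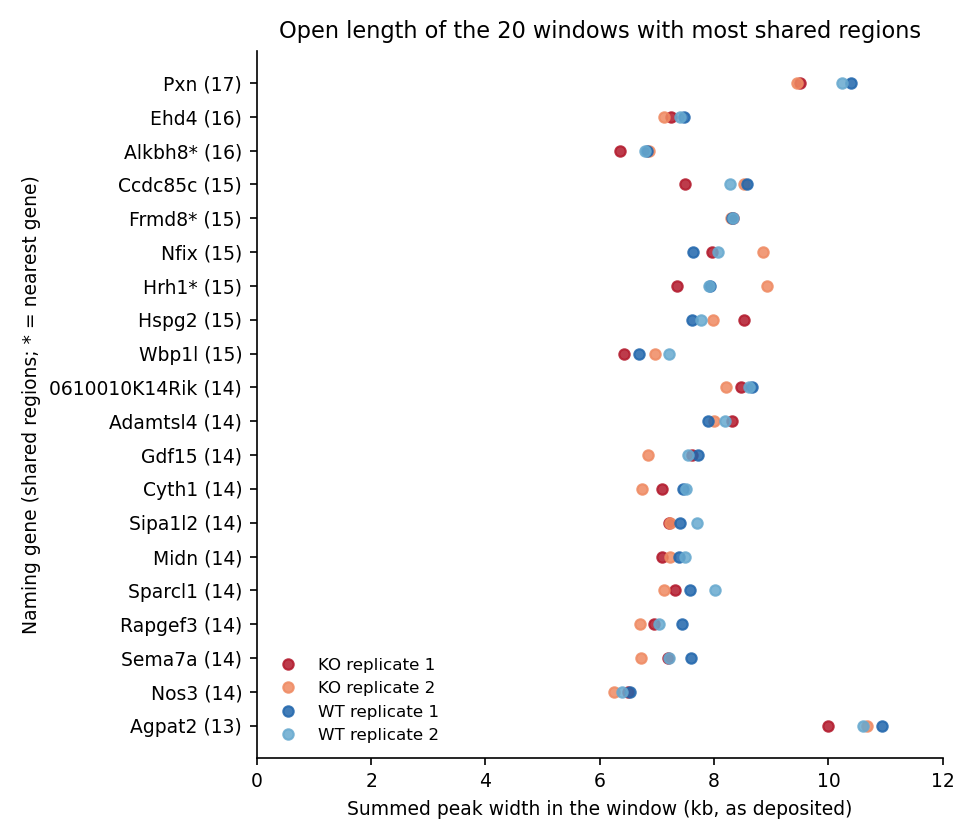
Open length in kb per library (horizontal axis) for the 20 windows with most shared regions (rows, named by gene, with an asterisk for a nearest gene outside the window). Each point is 1 library, coloured by genotype, and KO and WT points lie close together in most rows, as at the window with Malat1 and Neat1 nearest Frmd8 (8335, 8300, 8321 and 8336 bp).

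Peak-dense windows adjoined each other in 36 runs that took up 75 of the 347 windows, and 33 runs had 2 windows. The runs of 3 windows were at Hrh1 and Atg7 on chromosome 6 (114500001 to 114650000, 38 shared regions), at Rassf1, Gnai2 and Sema3f on chromosome 9 (107550001 to 107700000, 35) and at Col4a1 and Col4a2 on chromosome 8 (11250001 to 11400000, 34). Col4a1 and Col4a2, head-to-head genes, encode the main collagen chains of basement membrane. The run with most shared regions began 16703 bp past Hrh1, in a stretch without a protein-coding gene, and went on into Atg7, an autophagy enzyme. Arhgap26 named 4 windows, Zmiz1 named 3, and 24 genes named more than 1.

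Of all 21887 protein-coding genes, 608 (2.78%) overlapped a peak-dense window. In each gene list below the members are counted in the same way, as a description that does not account for gene length. Counted instead by a RefSeq start site inside such a window, a measure open to 17492 genes with an entry, 333 genes had one. By that count AP-1 and immediate early factors had 6 (14 of them with an entry), matrix genes 4 (12), Notch genes 3 (10), Hox genes 2 (9), pan-endothelial genes 2 (11), endothelial transcription factors 2 (22) and capillary genes 0 (9). AP-1 and immediate early factors, which respond to stress and growth signals within minutes, had 8 of 18 members in such windows: Junb (13 shared regions), Btg2 (12), Ier3, Maff and Zfp36 (11 each), and Fosb, Ier2 and Nr4a1 (10 each). The window of Junb had open lengths of 7404 and 6946 bp in KO and 7589 and 7444 bp in WT. That of Btg2 had 8820 and 7901 bp in KO and 8423 and 8268 bp in WT. Both KO libraries lay below both WT libraries at Junb as deposited, with a log2 difference of -0.03 that turned to 0.06 with median scaling, and the groups overlapped at Btg2. Hox genes had 8 of 15 members in only 2 windows, one of them with Hoxb3 to Hoxb6, so that these members are not separate cases.

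Among pan-endothelial genes, 7 of 20 overlapped a peak-dense window. They were Egfl7 and Ptprb (13 shared regions each), Eng (12), Cdh5 and Icam2 (11 each), and Pecam1 and Podxl (10 each). Cdh5, which encodes the junction protein VE-cadherin, lay in a window with open lengths of 4867 and 5895 bp in KO and 5885 and 6160 bp in WT. Eng, a coreceptor for BMP9, lay in one with 6870 and 6903 bp in KO and 6789 and 6780 bp in WT. Groups overlapped at Cdh5, and both KO libraries lay above both WT libraries at Eng. Endothelial transcription factors had 7 of 36 members in such windows: Lyl1, Bcl6b, Tcf4, Foxf1, Tal1, Elk3 and Epas1. Capillary genes had 3 of 15 (Ptprb, Plvap and Tbx2), and Plvap, which encodes the diaphragm protein of fenestrae and caveolae, spanned parts of 2 adjoining windows.

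Signalling genes followed. In the Notch list 5 of 13 genes overlapped a peak-dense window, namely the receptor Notch1, the coactivator Maml3, the ligands Dll4 and Jag2, and the target Hes1. The window of Notch1 adjoined that of Egfl7, and had open lengths of 7361 and 6827 bp in KO and 6692 and 7127 bp in WT. The window of Dll4 had 7836 and 7519 bp in KO and 7781 and 7836 bp in WT. Groups overlapped at both. In the BMP and TGF-beta list 6 of 23 did: the receptors Acvrl1 and Eng, the inhibitor Smad6, the targets Id1 and Id3, and Ltbp4, which binds latent TGF-beta. VEGF and angiopoietin genes had 2 of 14, Nrp2 and Flt4, which are also the 2 of 12 on the venous and lymphatic list. The window of Nrp2, a coreceptor for VEGF-C, had 7157 and 6742 bp in KO and 6225 and 6528 bp in WT. That of Flt4, which encodes VEGF receptor 3, had 5033 and 5443 bp in KO and 6095 and 5897 bp in WT. Both KO libraries lay above both WT libraries at Nrp2 and below them at Flt4. The test over all windows called neither, with an adjusted p of 0.761 and 0.758 (limma).

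Matrix genes had 4 of 16 members in peak-dense windows (Hspg2, Col4a1, Col4a2 and Lama5), and junction and cytoskeleton genes 5 of 21 (Pxn, Tns1, Actn4, Tjp1 and Myh9). For 8 lists the count was 0: the YAP and TEAD pathway (of 11), arterial genes (11), the DNA methylation machinery (13), Polycomb-type developmental factors (20), inflammation and leukocyte adhesion (14), and the epithelial (9), leukocyte (8) and fibroblast and mural markers (9). With 2.78% of all protein-coding genes in such windows, lists this short can hold 0 without being depleted.

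**Figure D3:**
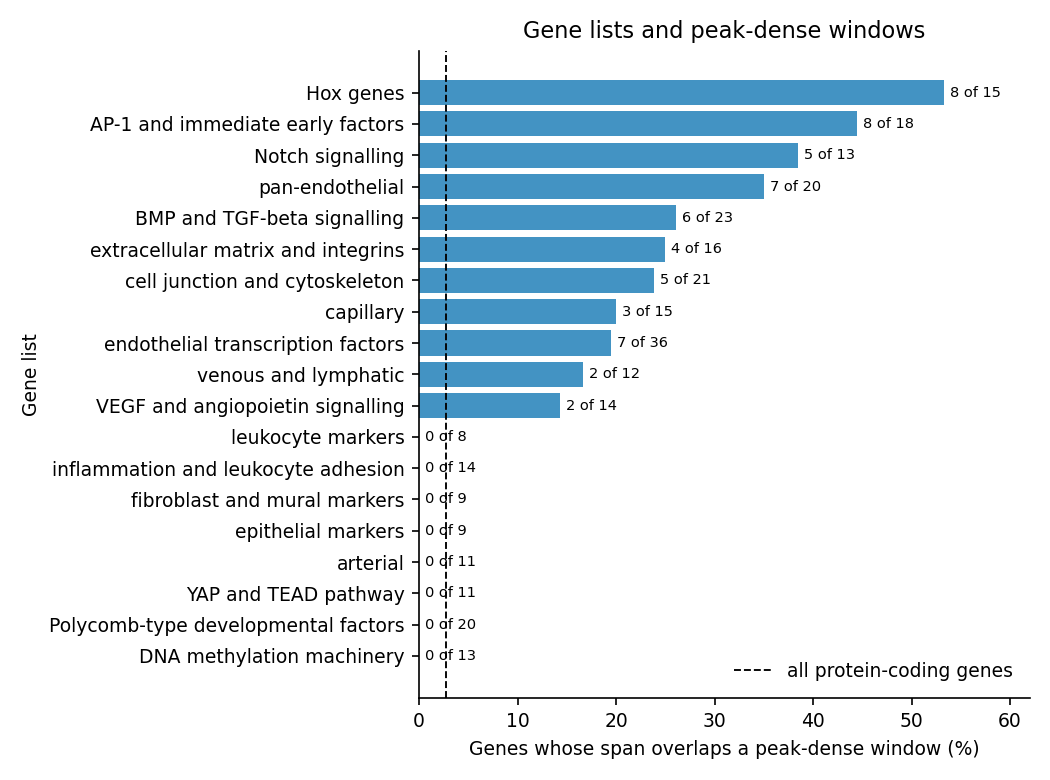
Percent of each gene list whose span overlaps a peak-dense window (horizontal axis), not adjusted for gene length, with the line at the 2.78% of all protein-coding genes. Hox genes (8 of 15) and AP-1 and immediate early factors (8 of 18) have the longest bars, and 8 lists are at 0.

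Measured over all peak-dense windows together, each library put nearly the same share of its peaks there. The KO libraries had 4056 and 4609 peaks there and the WT libraries 4402 and 4330, which is 4.77% and 4.57% of the KO lists and 4.34% and 4.44% of the WT lists. The count of peaks did not separate the genotypes, whereas both shares were higher in KO. Open length summed to 2155 and 2194 kb in KO and 2246 and 2248 kb in WT, a mean difference of -72.9 kb. As a share of all open length in the library, however, it came to 4.62% and 4.59% for KO against 4.40% and 4.45% for WT, so the order of the genotypes turned when each library was set against its own total. Both kinds of share depend on the rule. It picks windows by regions that all 4 lists call, so a list that covers less in total can have a larger share there. The KO lists cover less, so the higher KO shares cannot be read as a difference between genotypes. The median width of the shared regions was 481 and 465 bp in KO and 489 and 495 bp in WT. By a two-sided exact permutation test over libraries, p was 1 for the number of peaks and 0.33 for the other 4 values, which is the smallest p that 2 against 2 libraries can give.

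To compare genotypes window by window, log2 open length was quantile-normalised over all 25315 windows with a shared region and fitted with limma. Of the 347 windows, 0 passed an adjusted p of 0.05, as did 0% of all windows. The smallest adjusted p was 0.548 among peak-dense windows and 0.479 among all. At an unadjusted p under 0.05, 1 window had higher open length in KO (0.288%, against 3.37% of all windows) and 1 had lower (0.288%, against 3.65%). In either direction there were 2 (0.576%, against 7.02%). With limma-trend, an alternative added after seeing the data, 10 of the 347 had an unadjusted p under 0.05 (6 higher and 4 lower in KO), and 0 an adjusted one. Over all 25315 windows limma-trend gave 704 higher and 968 lower at that unadjusted threshold. After normalisation, both KO libraries lay above both WT libraries in 47 windows (13.5%, against 23.9% of all windows) and below them in 74 (21.3%, against 16.1%). The log2 difference, KO minus WT, had a median of -0.01 over peak-dense windows and 0.02 over all. It lay beyond 0.2 in either direction in 7 of the 347 windows (2.02%) and in 31.8% of all windows. A sum over many regions varies less than the width of 1 region, so this spread is not comparable as such. In simulated data, 46 of 100 windows with a log2 shift of 1 and 97 of 100 with a shift of 2 were recovered among 25315, and smaller shifts were not simulated. The shifted windows were drawn from all windows, so these rates are not specific to peak-dense windows. Differences in peak-dense windows ran from -0.62 to 0.44, smaller than either shift.

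**Figure D4:**
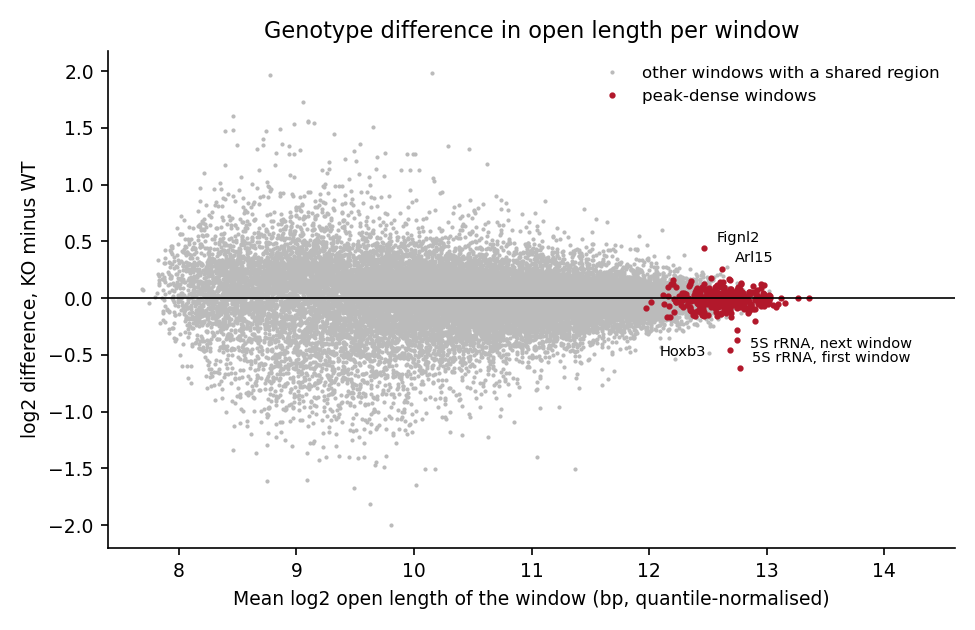
Log2 difference in open length, KO minus WT (vertical axis), against mean log2 open length in bp after quantile normalisation (horizontal axis), 1 point per window. Peak-dense windows (red) lie near 0, with a median of -0.01, and the windows of Fignl2, Arl15, Hoxb3 and the 5S rRNA genes stand apart.

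Quantile normalisation gives the windows with the greatest open length in each library the same value, so the windows of Pxn and Agpat2 had a difference of 0.00 by construction. With median scaling instead, their log2 differences were 0.01 and 0.07. Median scaling moved the median over peak-dense windows to 0.08, with 3 windows higher and 1 lower at an unadjusted p under 0.05. Over all 25315 windows it gave a median of 0.04, with 681 higher and 983 lower.

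The highest difference was at Fignl2 on chromosome 15 (101050001 to 101100000), a gene of the fidgetin family of microtubule-severing proteins. Open length was 6576 and 6483 bp in KO and 4925 and 4973 bp in WT. The log2 difference was 0.44 with a standard error of 0.09 (adjusted p = 0.548 by limma), and leaving out each library in turn gave 0.43 to 0.46. Both KO libraries lay above both WT libraries, which the choice of this window by p makes likely. Over the shared regions alone the log2 difference was 0.01, so the difference came from regions that not all lists call: 3 regions appeared in each KO list and were absent from the WT lists, the most of any peak-dense window. They lay at 101052742 to 101053714 inside Fignl2 (838 and 973 bp wide), at 101087032 to 101087289 (258 and 201 bp) and at 101092945 to 101093397 (439 and 429 bp). The 10 shared regions of this window did not show the same order: both KO widths lay above both WT widths in 0 and below them in 4. These widths are as deposited, where the KO lists cover less in total, and the share over all shared regions was not counted.

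The other windows with higher open length in KO had small differences, which for some were smaller still over the shared regions alone. Arl15, a small GTPase gene, had 6504 and 7053 bp in KO and 5716 and 5966 bp in WT (log2 difference 0.26, and 0.02 over shared regions alone). Of its 17 regions 10 were shared, and KO replicate 2 called 16 of the 17 whereas the other 3 libraries called 11 each. Bcl3, which encodes a nuclear cofactor of NF-kB, had 6146 and 6229 bp in KO and 5599 and 5699 bp in WT (0.17, and 0.09 over shared regions alone). Tcf4, a basic helix-loop-helix factor, had 7179 and 6643 bp in KO and 6390 and 6155 bp in WT (0.17, with 0.27 under median scaling and 0.11 without KO replicate 1). Ttll1 had 4894 and 4920 bp in KO and 4401 and 4680 bp in WT (0.16, and 0.04 over shared regions alone). In all 4 both KO libraries lay above both WT libraries, which their choice by p makes likely, and none passed the test.

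The lowest difference away from repeated genes was at Hoxb3 to Hoxb6, homeobox genes that set position along the body axis (chromosome 11, 96300001 to 96350000). Open length was 5141 and 6002 bp in KO and 7700 and 7945 bp in WT. The log2 difference was -0.45 with a standard error of 0.11 (adjusted p = 0.617 by limma), and leaving out each library in turn gave -0.55 to -0.36. Both KO libraries lay below both WT libraries, which the choice of this window by p makes likely. As deposited, both KO widths lay below both WT widths in 7 of the 11 shared regions and above them in 0. As at Pxn, the KO lists cover less in total, and the share over all shared regions was not counted for these widths. The 7 of 11 therefore has no background to be read against. A region inside Hoxb5 at 96304632 to 96305087 was 204 and 205 bp wide in KO and 456 and 450 bp in WT. One inside Hoxb3 at 96314697 to 96315348 was 241 and 343 bp in KO and 580 and 652 bp in WT. Farther along Hoxb3, at 96340629 to 96341349, widths were 366 and 451 bp in KO and 695 and 721 bp in WT. A region at 96333537 to 96333894 was listed in the WT libraries (358 and 355 bp) and absent from the KO lists. The widest region, over Hoxb4 at 96318247 to 96319752, overlapped between groups, at 1455 and 1280 bp in KO and 1389 and 1436 bp in WT. miR-10a-5p, printed above, lies beside that region.

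**Figure D5:**
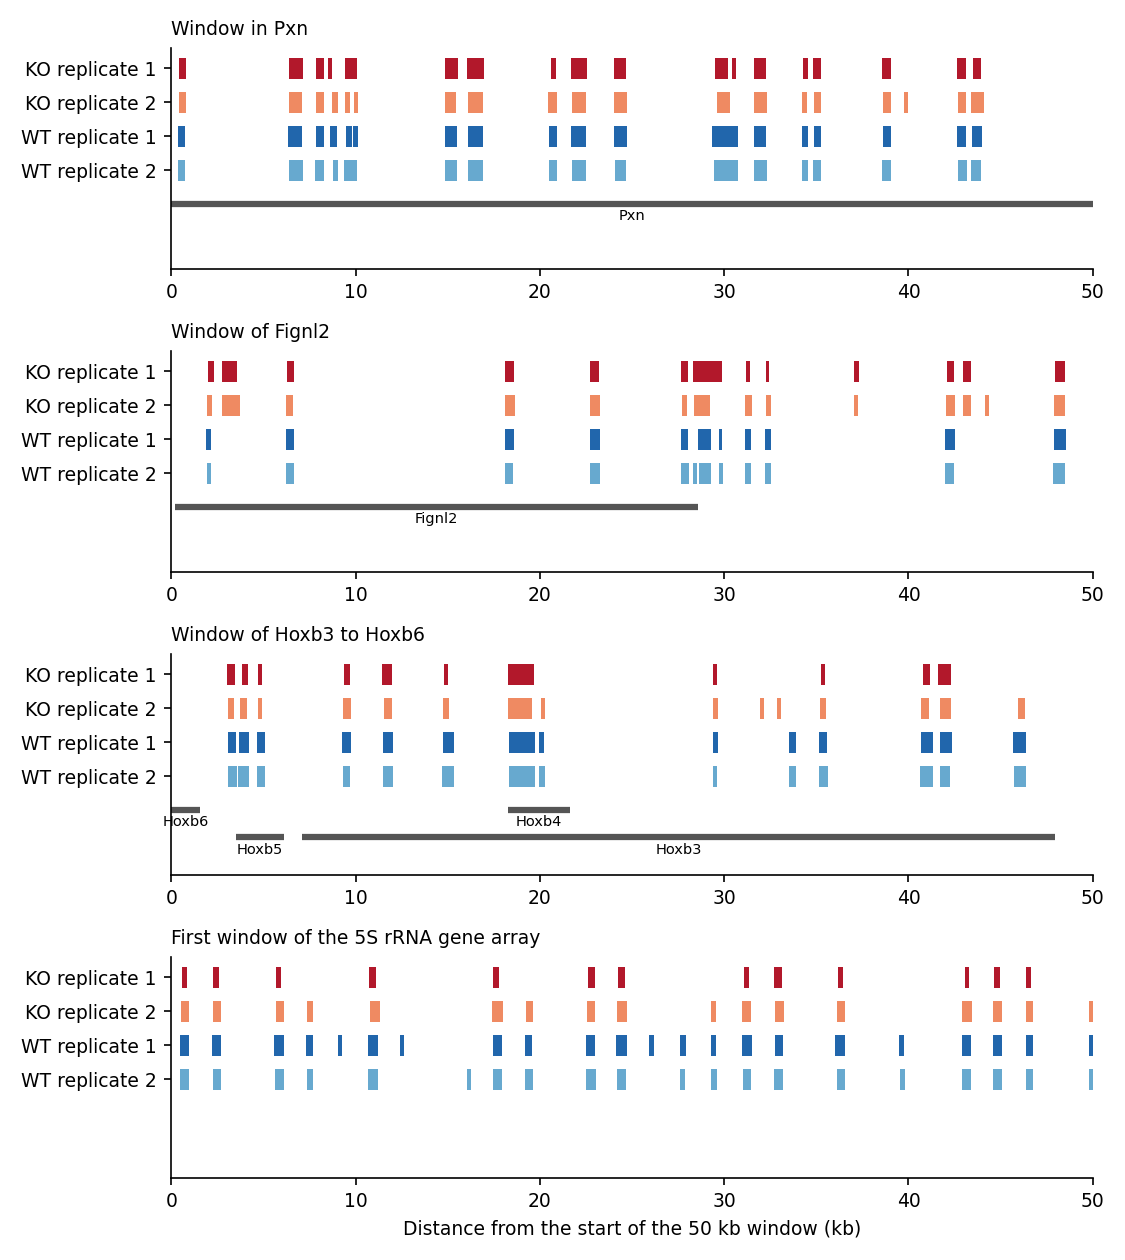
Peaks of each library (rows, blocks to scale) by distance in kb from the start of the window, for Pxn, Fignl2, Hoxb3 to Hoxb6 and the first 5S rRNA window, with gene spans in grey. At Fignl2 3 blocks appear in both KO rows and in neither WT row, and in the Hoxb window several KO blocks are narrower than the WT blocks.

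Among the remaining windows with lower open length in KO, Arhgap26 on chromosome 18 (38750001 to 38800000) had 4280 and 4140 bp in KO and 4995 and 4811 bp in WT (log2 difference -0.17, with -0.09 under median scaling and -0.07 over shared regions alone). A Bcor window on chromosome X (12050001 to 12100000) had 5344 and 6944 bp in KO and 7377 and 8045 bp in WT (-0.29, with -0.11 without KO replicate 1 and -0.47 without KO replicate 2). The KO libraries also differed in Xist and Y-linked peaks, whose part in this value was not tested.

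After seeing the data, 6 of the 347 windows were set apart as places where reads from near-identical copies may not be placed with certainty, although copy number was not measured. Those on chromosome 8 (123550001 to 123600000 and 123600001 to 123650000, with Gas8 and Rhou as the nearest protein-coding genes) held 43 genes for 5S ribosomal RNA, which is made by RNA polymerase III. Of their 40 regions, 36 lay on a 5S gene, and the median distance between neighbouring 5S genes was 1695 and 1698.5 bp. A peak was listed on 22 and 30 of the 43 genes in KO and on 35 and 33 in WT. Open length in the first window was 4110 and 7480 bp in KO and 9148 and 8288 bp in WT, and in the second 4909 and 7188 bp in KO and 7976 and 7740 bp in WT. Both KO libraries lay below both WT libraries, which the choice of these windows by p makes likely, but KO replicate 1 lay far below KO replicate 2. The log2 differences of -0.62 and -0.37 became -0.20 and -0.11 without KO replicate 1, -1.04 and -0.64 without KO replicate 2, and -0.29 and -0.17 over shared regions alone. The others were 2 windows in Sfi1 on chromosome 11 (10 and 13 shared regions), the window at 3000001 to 3050000 on chromosome 9 (16), which held Mir101c and no protein-coding gene, and a cluster of Ifnz and predicted genes on chromosome 4 (12). In the last, open length was 8880 and 5597 bp in KO and 6902 and 8474 bp in WT, a wider spread within each genotype than between the means. The 6 windows held no region found in the KO libraries alone.

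Replication-dependent histone genes, which are also present in many similar copies, named a pair of adjoining windows on chromosome 13. That of H2bc6 (23550001 to 23600000) overlapped 10 histone genes, and all 12 of its regions were shared, 9 of them at gene ends. Its open length was 8505 and 7755 bp in KO and 7699 and 7841 bp in WT. The adjoining window of H3c7 had 7788 and 6846 bp in KO and 6833 and 6748 bp in WT. Groups overlapped at H2bc6, and both KO libraries lay above both WT libraries at H3c7, narrowly so for KO replicate 2.

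Regions that each KO list held and each WT list lacked (the KO pattern) numbered 50 of the 4659 regions (1.07%), against 1.12% of all merged regions. Those held by each WT list and lacked by each KO list (the WT pattern) numbered 59 (1.27%), against 3.04% of all. Windows chosen for regions that all lists call leave less room for either pattern, so these shares are descriptions. The KO pattern occurred in 43 windows and the WT pattern in 52, with both in 10. A further 113 regions were called in 1 KO and 1 WT list, as were 5331 of all merged regions. Such regions can come from any pairing of a KO with a WT list, and each pattern from 1 pairing only. Their number is thus not comparable with that of either pattern. Peaks of both patterns were narrow, with medians of 249 and 310.5 bp for the KO pattern and 240 and 236 bp for the WT pattern. Of the 329 regions called in 1 list, 183 were in KO replicate 2, and of the 297 called in 3 lists, 219 were missing from KO replicate 1. Without KO replicate 1 or KO replicate 2 the KO pattern numbered 426 or 108 regions in windows chosen from the remaining 3 lists. The WT pattern then numbered 175 or 305.

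Ranked by the narrower of the 2 widths, and apart from Fignl2, the widest KO-pattern regions lay at Sh2d3c, an adaptor protein gene (397 and 415 bp), Maml3 (392 and 402 bp), in the window of Gadd45g, 14589 bp from Sema4d (392 and 544 bp) and inside Nrp2 (391 and 342 bp). The window of Fignl2 held 3 of them, and the windows of Nfix, H3c7, Anks1, Ccdc63 and Bcl3 held 2 each. Those in the window of H3c7 lay outside genes, 17696 and 18396 bp from Btn2a2. By the same rank, the widest WT-pattern regions lay 3636 bp from Gngt2 in the window of Abi3 (410 and 387 bp), inside Msi2, an RNA-binding protein gene (375 and 367 bp), in the window nearest Cpn2 (465 and 357 bp) and in Hoxb3. The window of Itpripl2 held 3 WT-pattern regions of 201 to 257 bp, all outside that gene. The windows of Tjp1, which encodes the tight junction protein ZO-1, of Fmnl3 and of Nfib held 2 each. So did the window nearest Cpn2 and the first 5S window. In the window of Fmnl3, 1 of the 2 lay inside Prpf40b.

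Widths of the 3811 shared regions were also compared 1 by 1, in a limma fit over all 75395 shared regions. Of the 3811, 0 passed an adjusted p of 0.05, as did 0% of all, with a smallest adjusted p of 0.537. At an unadjusted p under 0.05, 112 were wider in KO (2.94%, against 2.85% of all shared regions) and 74 narrower (1.94%, against 3.18%), which is 186 in either direction (4.88%, against 6.03%). This split depended on the scaling: with median scaling it was 79 wider and 75 narrower, and without normalisation 50 and 134. Over all 75395 shared regions it was 1525 and 2470 with median scaling, and 945 and 4167 without normalisation. Both KO widths lay above both WT widths, after normalisation, in 879 regions (23.1%, against 20.3%) and below them in 432 (11.3%, against 14.8%). The median log2 difference was 0.02, against 0.01 over all, and -0.04 without normalisation. In simulated data, 42 of 100 regions with a log2 shift of 1 and 92 of 100 with a shift of 2 were recovered among 75395. The shifted regions were drawn from all shared regions.

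The regions with the smallest p in each direction all had an adjusted p of 0.537. Those wider in KO lay inside Tbc1d22a (chromosome 15, 86229081 to 86229963) with widths of 799 and 684 bp in KO and 447 and 435 bp in WT, inside Mgat4b (chromosome 11, 50231049 to 50231691) with 542 and 572 against 284 and 214 bp, and inside Ltbp4 with 382 and 391 against 271 and 255 bp. Others lay 95228 bp from Tbx3 (404 and 418 against 202 and 250 bp) and inside Ssbp4 (407 and 465 against 265 and 258 bp). Mgat4b, which encodes a glycosyltransferase, had the greatest log2 difference of these 5, at 1.28 with a standard error of 0.15.

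Those narrower in KO included the Hoxb5 region above. A region inside Tbc1d30 (chromosome 10, 121285740 to 121286448) was 263 and 284 bp wide in KO and 610 and 587 bp in WT, and had the smallest p of all members. Inside Kcnq1, a potassium channel gene in an imprinted domain, a region at 143119232 to 143120755 on chromosome 7 was 236 and 401 bp in KO and 1329 and 1111 bp in WT. Its log2 difference of -1.84, with a standard error of 0.24, was the lowest of the 3811. The last were 94559 bp from Foxl1 (370 and 367 against 674 and 788 bp) and 2619 bp from Pde4b (390 and 375 against 638 and 616 bp). In these 10 regions the widths of the genotypes did not overlap, which their choice by p makes likely.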

How the data were processed

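ATAC-seq peak lists of 2 KO and 2 WT libraries were analysed, grouped by their labels. Per the submitters' processing notes, cutadapt, Bowtie2, Picard and mm10 were used. The sources used here give no version, peak caller, threshold or shift of reads. The deposited lists hold other values than counts: chromosome, start, end, width in bp and strand per peak, with no normalisation by the authors that the file headers record. Since depth is unknown, chromatin without a listed peak may still be open.

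Genes, promoters and microRNAs came from RefSeq tables (GRCm38.p6). The gene table gives spans without strand, so distances are to either gene end, and 17492 of 21887 protein-coding genes have a promoter entry. A window was named by the gene span holding most shared regions, or by the nearest gene. Named were the 20 windows with most shared regions, up to 4 per gene list, the 5 per pattern and per direction of each fit, and the runs of 3. The members and gene lists were chosen with earlier results of these data known. Some items that the rule gave are not reported here. Bcl3 (KO pattern) and Nfib (WT pattern) tied with windows of that rule.

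Open length per window and width per shared region were fitted with limma on quantile-normalised log2 values (genotype only), with Benjamini-Hochberg adjustment over all windows or regions, and library values by exact permutation tests. Each fit was tested on simulated data, with 9 false calls. Alternatives covered merging, window position and threshold, list length, scaling, filters, a replicate block and leaving out each library. Tools were limma 3.58.1 in R 4.3.3, and scipy 1.17.1, pandas 2.3.3 and numpy 2.4.6 in Python 3.11.15.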

Additional observations from a re-analysis of the deposited data

How the results depend on the processing

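The number of peak-dense windows depended on the rule. Merging peaks within 500 bp gave 189 windows with 2345 regions, of which 20 had the KO and 32 the WT pattern. A threshold of 8 shared regions gave 1167 windows, 13432 regions, 155 and 174, and a threshold of 12 gave 89, 1362, 11 and 13. Lists of equal length by width gave 218 windows, 2806 regions, 49 and 20. Of the 20 windows named by number, 20 remained under each of these, and 19 with equal list lengths. Leaving out each library gave 364 to 644 windows (644 without KO replicate 1), 4809 to 8329 regions, 72 to 426 of the KO pattern and 92 to 305 of the WT pattern.

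The KO minus WT number of peaks, -33.5, turned to 70 with equal list lengths, 427 without KO replicate 1 and 5.5 without WT replicate 1, and ranged from -341.5 to 427. Under every setting 0 windows and 0 regions passed the adjusted threshold. Windows with an unadjusted p under 0.05 numbered 2, and 10 with limma-trend, 4 with median scaling, 1 with windows shifted by 25 kb, and 0 to 8 without 1 library (8 without KO replicate 2). Their median log2 difference was 0.0799 with median scaling, -0.0477 without normalisation and -0.0177 to -0.00652 without 1 library. For region widths the median was -0.0423 without normalisation and 0.00287 to 0.0446 without 1 library, with 93 to 695 regions at an unadjusted p under 0.05 (361 without KO replicate 1, 695 without KO replicate 2). Without the 6 windows of repeated copies, set apart after seeing the data, the KO pattern numbered 50 and the WT pattern 57. The causes were not tested.

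Libraries with the same replicate number shared only that number: their deviations correlated at -0.06 over windows and -0.04 over regions. With the replicate block, 2 windows (1 higher, 1 lower) and 165 regions (94 wider, 71 narrower) had an unadjusted p under 0.05, and 0 an adjusted one. Over all 25315 windows 619 were higher and 887 lower, and over all 75395 shared regions 2019 were wider and 2375 narrower. The 10 windows and 10 regions named for their difference kept their direction under the alternatives run for them. Of all 63 named windows, 22 turned from lower to higher in KO with median scaling and 0 the other way. Unknown depth limits what a missing peak means.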
